A study of Mus musculus with 13 samples.

Results

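The genes described here are 10 regulators and targets of the integrated stress response, namely Ddit3, Atf3, Atf5, Nupr1, Trib3, Chac1, Mthfd2, Ddit4, Sesn2 and Gdf15. They were taken by gene name from 3 deposited tables, each of 1 inhibitor against vehicle, and 9 of the 10 are among the 1592 gene names that stand in at least 1 table. Sesn2 is in none, so no value of it is given. RNA was sequenced from primary astrocyte cultures exposed for 24 h to HLM006474 (3 samples), a RUNX1 inhibitor (3 samples), SB431542 (3 samples) or Vehicle (4 samples). All cultures were started from retina and optic nerve tissue of C57BL/6 mice of wild type genotype at postnatal day 1 to 3 and grew with serum. HLM006474 is known as an inhibitor of E2F transcription factors, the compound called the RUNX1 inhibitor here (its label stands in the plot of fold changes) as an inhibitor of RUNX1 and its partner CBFB, and SB431542 as an inhibitor of the type I receptor kinases for TGF-beta and activin. No dose is stated. It is not stated either whether replicates are separate animals or platings, so a p-value here reflects only how these samples scatter, which can be technical.

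In the integrated stress response, kinases that sense amino acid shortage, unfolded protein, heme shortage or viral RNA phosphorylate the initiation factor eIF2. General translation then falls, while the mRNA of the transcription factor ATF4 is translated more. ATF4 and its target CHOP, the product of Ddit3, bind composite C/EBP-ATF elements and switch on genes of amino acid supply, redox balance, feedback and, under lasting stress, cell death. Control of ATF4 lies largely in translation, which RNA sequencing does not measure.

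Under HLM006474 6 of the 10 genes were listed, all higher, and under SB431542 5 were listed as higher and 1 as lower. Trib3 alone was listed under the RUNX1 inhibitor, where it was higher. Among all genes tested, 1.42% were listed as higher under HLM006474, 0.605% under the RUNX1 inhibitor and 2.29% under SB431542, and 2.64% were listed as lower under SB431542. The genes were chosen with earlier results of these data in view, so these shares are a background and not a test of the group. Trib3 was in all 3 tables, Atf3 and Gdf15 were in the tables of HLM006474 and SB431542, and 6 genes were in 1 table each. The 3 comparisons share the Vehicle samples, so a like change under several compounds is not independent evidence. In a culture with several cell types, fewer cells of a type and less RNA per cell cannot be told apart.

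The fold changes, standard errors and mean counts are the authors' own, with no values for single samples. The mean normalised count is a level averaged over libraries, and the log2 fold change is a difference, compound over Vehicle, given with its standard error. Listed genes had an adjusted p under 0.05 and a change of at least about 1.5-fold. A gene outside a table may have changed by less than that, and the largest change that its table still allows is called its limit below. Only genes listed for a compound and absent for another were tested against a limit. That choice leans the test toward a difference.

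**Figure D1:**
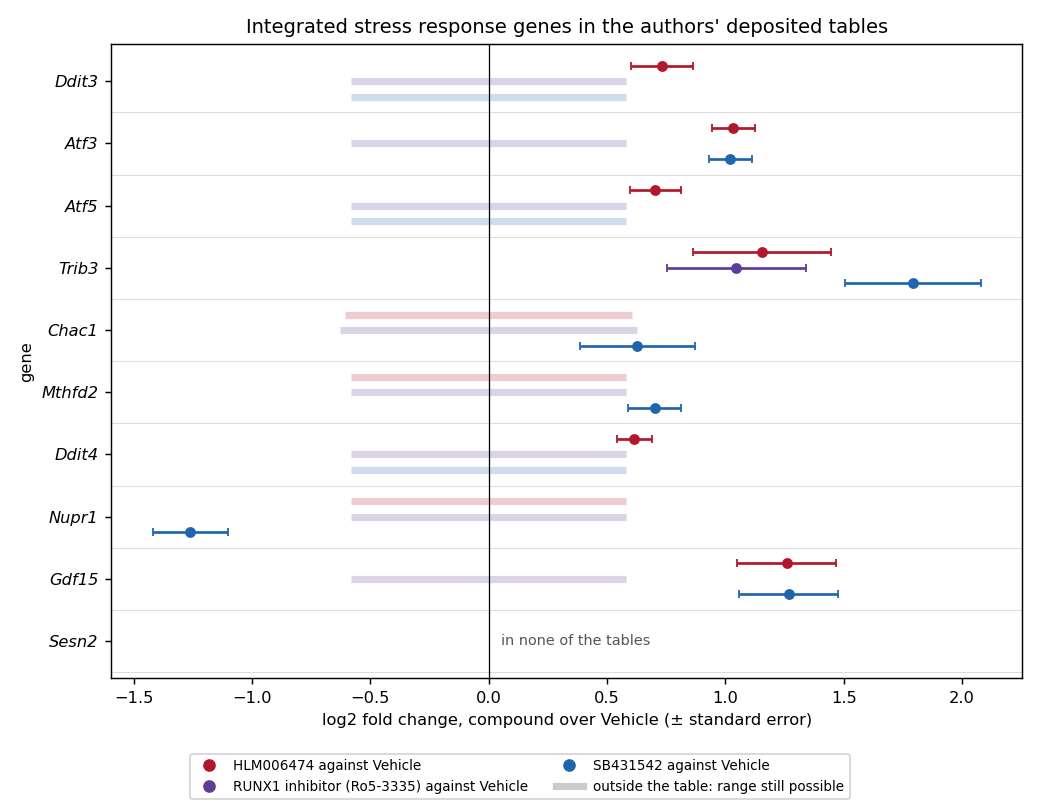
Log2 fold change, compound over Vehicle, with its standard error for each gene (points and bars) and, for genes outside a table, the range that the table's limits still allow (pale bars). Every point lies on the higher side except Nupr1 under SB431542, at -1.26.

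Among the transcription factors, Atf3, a stress-induced factor of the ATF and CREB family that dampens or extends the response, rose under HLM006474 and SB431542. In the authors' deposited table it stood at 1.03 ± 0.091 under HLM006474, a 2.05-fold rise with a 95% interval of 1.81 to 2.31. Under SB431542 it stood at 1.02 ± 0.091 in the authors' deposited table, a 2.03-fold rise with a 95% interval of 1.79 to 2.29. The change under HLM006474 minus that under SB431542 was 0.01 on the log2 scale with a 95% interval of -0.24 to 0.26 (z test, adjusted p = 0.991), so differences inside that interval remain possible. Atf3 was outside the table of the RUNX1 inhibitor, whose limit for it is a 1.50-fold change. Both rises went past that limit (z test against the limit, adjusted p = 0.00967 for HLM006474 and 0.00462 for SB431542). Atf3 entered this test because it was listed for these compounds and absent for the RUNX1 inhibitor, which leans the test toward a difference. A difference from the RUNX1 inhibitor is thus not established by these p-values. By the authors' p Atf3 was number 30 of 216 higher genes under HLM006474 and number 29 of 347 under SB431542, the nearest to the top of its list of any of the 10 genes in either table.

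Ddit3 encodes CHOP, which carries the response toward cell death when stress lasts. Its RNA was listed under HLM006474 alone, at 0.73 ± 0.13 in the authors' deposited table, a 1.66-fold rise (adjusted p = 4.99e-07, DESeq2). That rise exceeded the limit of the SB431542 table by 0.15 on the log2 scale with an error of 0.19, so the compounds were not shown to differ (z test against the limit, adjusted p = 1). Atf5, whose mRNA is also translated more during the response and which is known for its part in mitochondrial protein stress, rose 1.63-fold under HLM006474 (0.70 ± 0.11 in the authors' deposited table, adjusted p = 2.40e-09, DESeq2). It exceeded the limits of the other tables by 0.12 with an error of 0.15 (z test against the limit, adjusted p = 1 for the RUNX1 inhibitor and for SB431542). Both genes were thus listed under HLM006474 without a shown difference from the other compounds.

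Nupr1, a small stress-induced chromatin-associated protein, was the 1 gene of the 10 that was listed as lower. In the authors' deposited table it stood at -1.26 ± 0.16 under SB431542 (adjusted p = 1.29e-13, DESeq2). Its level under SB431542 was 41.7% of that under Vehicle, with a 95% interval of 33.6% to 51.8%. The fall went past the limits of the tables of HLM006474 and the RUNX1 inhibitor, with adjusted p = 0.0219 and 0.0164 (z test against the limit). Nupr1 entered this test only because it was listed under SB431542 and absent under the other compounds, which leans the test toward a difference. Its changes under those compounds are unknown, so a fall particular to SB431542 is not established. Trib3, Atf3, Gdf15, Mthfd2 and Chac1 were listed as higher under SB431542.

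Trib3 encodes a pseudokinase that is induced by ATF4 and CHOP and restrains both ATF4 and the kinase AKT. In the authors' deposited tables it stood at 1.15 ± 0.29 under HLM006474, at 1.05 ± 0.29 under the RUNX1 inhibitor and at 1.79 ± 0.29 under SB431542. As fold changes these are 2.22, 2.07 and 3.47, in the same order. Its fold change was the highest of the 10 genes under SB431542, while under HLM006474 Gdf15 stood above it. Over the 10 genes 5 differences between compounds could be tested, 3 of them for Trib3. After adjustment its 3 changes were not shown to differ from each other. The change under HLM006474 minus that under SB431542 was -0.64, with a 95% interval of -1.44 to 0.16 (z test, adjusted p = 0.243). SB431542 minus the RUNX1 inhibitor gave 0.75, with an interval of -0.06 to 1.55 (z test, adjusted p = 0.305). HLM006474 minus the RUNX1 inhibitor gave 0.11, with an interval of -0.71 to 0.92 (z test, adjusted p = 0.998). With an error that allows for the shared Vehicle samples, HLM006474 minus SB431542 had an interval of -1.25 to -0.03 (z test, adjusted p = 0.0795). SB431542 minus the RUNX1 inhibitor then had an interval of 0.14 to 1.36 (z test, adjusted p = 0.0715). Both intervals excluded equal changes, but neither adjusted p passed. Trib3 had the lowest mean normalised count of the 9 listed genes, 74.8, and the largest standard errors.

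Chac1 encodes an enzyme that breaks down glutathione and is induced through ATF4. It was listed under SB431542 alone, at 0.63 ± 0.24 in the authors' deposited table, a 1.54-fold rise with a 95% interval of 1.11 to 2.15. Its adjusted p of 0.0483 (DESeq2) lay just inside the limit, and by p it was number 344 of the 347 higher genes. Mthfd2, a mitochondrial enzyme of one-carbon metabolism, was also listed under SB431542 alone, at 0.70 ± 0.11 in the authors' deposited table, a 1.63-fold rise (adjusted p = 7.58e-09, DESeq2). Neither gene was shown to rise more under SB431542 than under HLM006474 (z test against the limit, adjusted p = 0.986 for Chac1 and 0.954 for Mthfd2). The same holds against the RUNX1 inhibitor (adjusted p = 1 for Chac1 and 0.855 for Mthfd2).

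Ddit4, also called REDD1, restrains the growth kinase complex mTORC1, as Sesn2 does by sensing leucine. Ddit4 was listed under HLM006474 alone, at 0.61 ± 0.073 in the authors' deposited table, a 1.53-fold rise (adjusted p = 3.87e-15, DESeq2). Its change was small and its error the smallest of the 9 listed genes, and it lay 0.03 above the limits of the other tables with an error of 0.10. Gdf15, a secreted stress cytokine that acts on the brainstem through the receptor GFRAL, rose 2.39-fold under HLM006474 and 2.41-fold under SB431542. In the authors' deposited tables it stood at 1.26 ± 0.21 and 1.27 ± 0.21, in that order. HLM006474 minus SB431542 was -0.01 for Gdf15, with a 95% interval of -0.59 to 0.57 (z test, adjusted p = 0.991). Its rises exceeded the limit of the RUNX1 inhibitor table by 0.68 and 0.69, which did not pass (z test against the limit, adjusted p = 0.214 and 0.0949). With an error that allows for the shared Vehicle samples the same comparisons gave adjusted p = 0.0239 and 0.010 (z test against the limit). Gdf15 too entered this test by being listed for these compounds alone, which leans the test toward a difference.

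**Figure D2:**
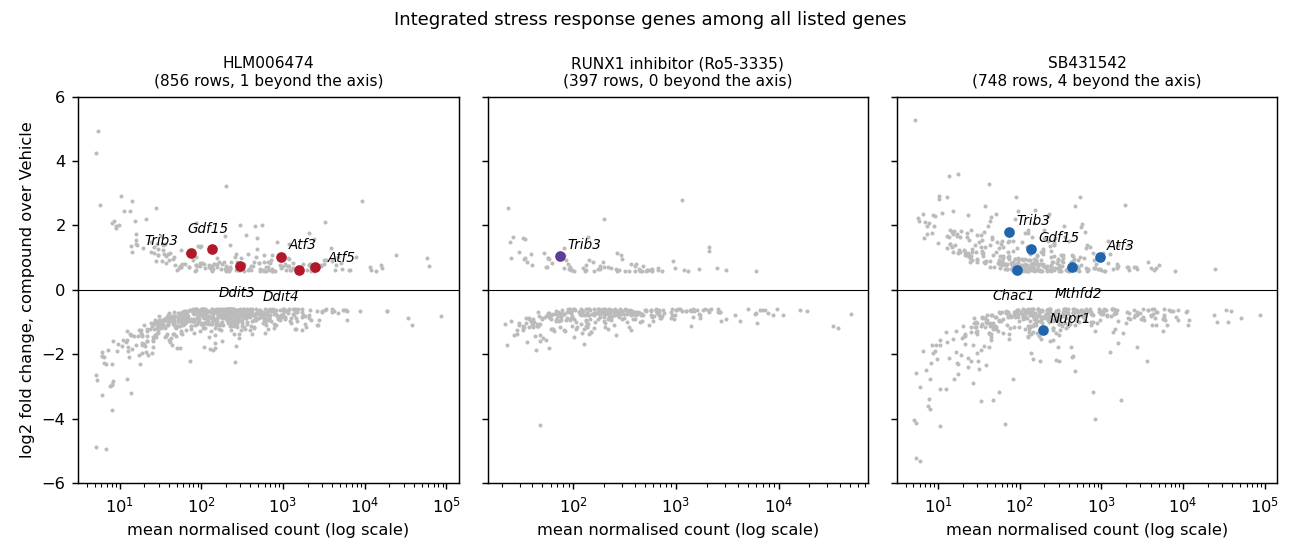
Log2 fold change against mean normalised count (log axis) for the genes listed under each compound, with stress response genes in colour and other listed genes in grey. Trib3 stands at 1.15, 1.05 and 1.79 in the panels from left to right, and the gap around 0 is the authors' fold limit.

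The level of each gene in each group was estimated from the mean count over all 13 libraries and the fold changes, because the tables give no level per group. Trib3 has a fold change for every compound, so its levels follow directly. They were 79.3 normalised counts under HLM006474, 73.6 under the RUNX1 inhibitor, 124 under SB431542 and 35.6 under Vehicle. The standard errors imply a replicate variation of 22.6%, 22.7% and 22.6% of the level for Trib3 in the 3 comparisons, beyond counting error. These percentages are worked back from the errors of the authors' fit, not from replicate values. They are not 3 separate measures of scatter. By these estimates SB431542 cultures stood highest and Vehicle cultures lowest. The order among the compounds is not established, since the z tests above did not show their Trib3 changes to differ.

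Where a gene is outside a table, its level under that compound was set to either end of the allowed range, which gives a range for the other groups. For Atf3 that range was 1226 to 1393 normalised counts under HLM006474, 1215 to 1380 under SB431542 and 599 to 681 under Vehicle. For Gdf15 it was 186 to 209 under HLM006474, 187 to 210 under SB431542 and 77.8 to 87.3 under Vehicle. Both ends of a range keep the deposited fold change, so these ranges hold no sampling error and test nothing. Nupr1 was at 73.2 to 112 under SB431542 and at 175 to 269 under Vehicle. Ddit3 was at 361 to 499 under HLM006474 and at 217 to 300 under Vehicle. The implied replicate variation was smallest for Ddit4, at 6.22%, and for Atf3, at 7.52% under HLM006474, against 19.7% for Chac1 and 16.8% for Gdf15 in either of its comparisons. Chac1 and Trib3, the genes with the fewest counts, were thus also the least precise.

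**Figure D3:**
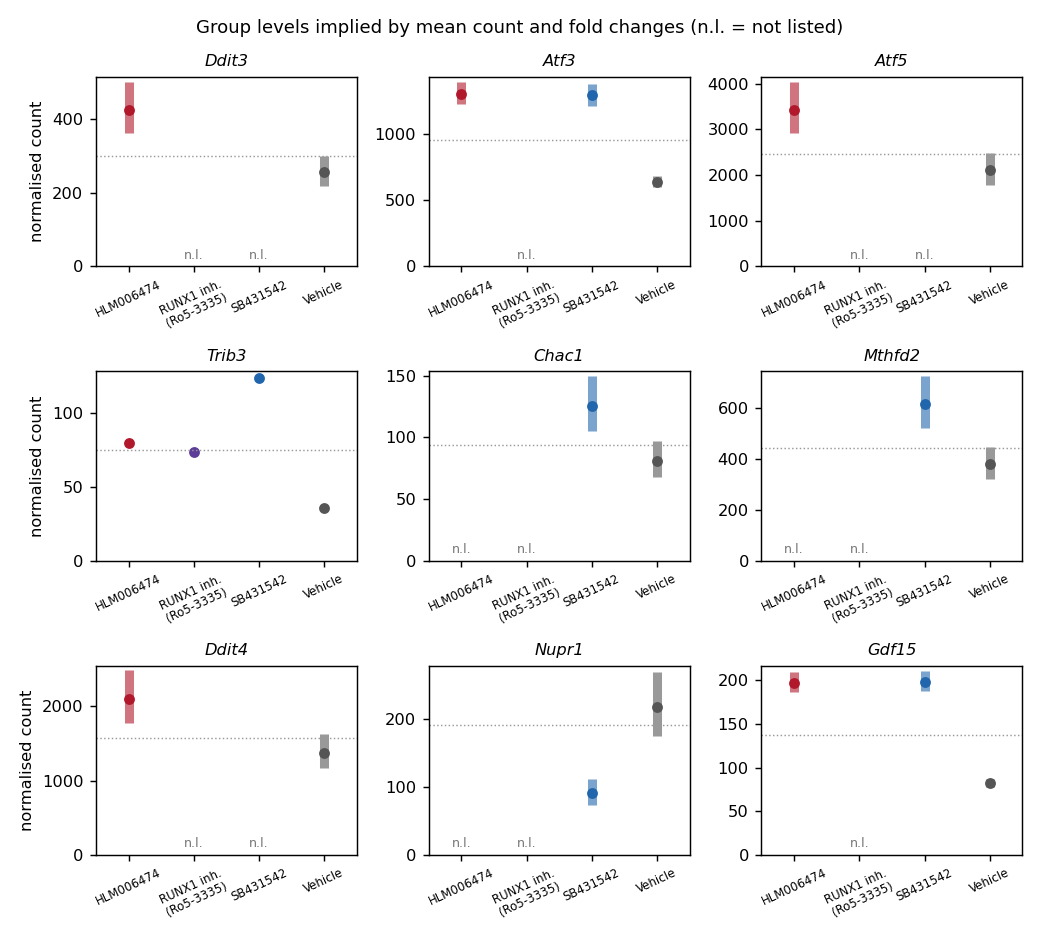
Estimated normalised count of each listed gene under HLM006474, the RUNX1 inhibitor, SB431542 and Vehicle (linear axes from 0), with bars for the range left by tables in which the gene is not listed (n.l.), points at the geometric middle of the range and dotted lines at the mean over all libraries. Trib3 shows 4 separate points, highest under SB431542 at 124 and lowest under Vehicle at 35.6.

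Per kilobase of annotated exon, Atf5 had the highest mean level, 1231 normalised counts per kb, followed by Ddit4 with 896 and Atf3 with 443. Ddit3 followed with 175 and Mthfd2 with 126. The lowest were Trib3 with 35.2 and Chac1 with 57.1. These levels use GENCODE exons, since the authors' gene models are not given.

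Genome position limits some of these values. Ddit3 lies at chr10:127290774-127296288 on the plus strand of GRCm38, and the annotation holds another gene of the same name inside it, so which of these the authors counted is not known from the name. Its last 68 bases are shared with Mars, a tRNA synthetase gene on the opposite strand. Atf5, at chr7:44812256-44816658 on the minus strand, overlaps Nup62 by 571 bases and Il4i1 by 272 bases, both on the opposite strand. Whether reads were counted by strand is not given, so reads from these overlaps cannot be told apart. Atf3 lies at chr1:191170296-191218039, Trib3 at chr2:152337422-152344032 and Nupr1 at chr7:126623249-126630861, all on the minus strand. Chac1 lies at chr2:119351229-119354381 on the plus strand.

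The composite C/EBP-ATF element through which ATF4 is known to act was searched as TGATGNAA on both strands in the 250 bases before each RefSeq start (GRCm38.p6). All 10 genes matched a RefSeq window, 12 windows in all since Atf5 and Gdf15 have 2 starts each. The letters stood in windows of Atf3, Chac1 and Nupr1, and in 3.45% of all 32851 windows. Each of the 3 genes held the letters on the strand opposite to the gene, so that the gene's own strand reads as the capitals below. These windows are shown because they carry the same 8 letters in genes that moved in opposite directions under SB431542, and Trib3 is shown as the gene listed under every compound. The Atf3 stretch is chr1:191183341-191183583 (minus strand), that of Chac1 is chr2:119350992-119351228 (plus strand), the Nupr1 stretch of 30 bases is chr7:126625562-126625591 (minus strand) and the window of Trib3 is chr2:152344061-152344310 (minus strand). For Nupr1 the element falls in the 5′ UTR of the GENCODE transcript, which starts further upstream than the RefSeq one, so the element alone is shown with 11 bases on either side. The 243 bases of Atf3 lie in an intron of the longer GENCODE gene, and the 237 bases of Chac1 and the 250 of Trib3 lie upstream of the annotated gene. The last 7 bases of the Atf3 window and the last 13 of the Chac1 window are exonic in GENCODE and are left out. Capitals mark the element, and each sequence reads 5′ to 3′ on the strand of its gene.
Atf3: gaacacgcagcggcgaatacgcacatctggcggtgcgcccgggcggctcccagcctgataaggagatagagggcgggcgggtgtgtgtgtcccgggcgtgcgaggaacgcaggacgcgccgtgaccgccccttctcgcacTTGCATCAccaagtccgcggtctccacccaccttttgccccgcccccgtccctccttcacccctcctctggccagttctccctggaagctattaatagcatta
Chac1: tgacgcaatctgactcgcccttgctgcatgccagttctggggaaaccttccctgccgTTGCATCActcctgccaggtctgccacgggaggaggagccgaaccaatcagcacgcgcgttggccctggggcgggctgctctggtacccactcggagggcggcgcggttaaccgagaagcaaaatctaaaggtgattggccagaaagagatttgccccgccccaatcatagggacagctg
Nupr1: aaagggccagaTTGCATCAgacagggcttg
Trib3: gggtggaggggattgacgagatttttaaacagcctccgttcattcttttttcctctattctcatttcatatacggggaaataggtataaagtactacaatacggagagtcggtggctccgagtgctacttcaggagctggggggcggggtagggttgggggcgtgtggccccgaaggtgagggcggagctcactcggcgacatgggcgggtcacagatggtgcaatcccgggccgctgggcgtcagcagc

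In Atf3 and in Nupr1 the element began 110 bases before the start, and in Chac1 it began 193 bases before it. Under SB431542 the genes with these letters were listed at 1.02 for Atf3, 0.63 for Chac1 and -1.26 for Nupr1 in the authors' deposited table, so they did not share a direction. Trib3, with the largest rise of the 10 genes under SB431542, holds no such letters in this window, which says nothing of sites elsewhere. The palindromic CRE TGACGTCA was in no window of the 10 genes and in 1.55% of all windows. The AP-1 letters TGANTCA were in the Ddit3 window, where both strands match at 1 place, and in 6.75% of all windows. The antioxidant element letters TGACNNNGC were in the Sesn2 window and in 10.2% of all windows. In Sesn2 they began 36 bases before the RefSeq start, inside 45 bases that are exonic in GENCODE. Upstream ATG codons, which help some stress mRNAs escape the fall in translation, stood in the 5′ leader of 6 of the 10 genes. They stood in 55.1% of 20584 coding genes, so this feature did not set the group apart by count. Gdf15 held 4, Ddit3 and Atf5 held 2 each, and Atf3, Nupr1 and Sesn2 held 1 each.

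The rest of the pathway was read from 7 lists with 78 genes. Under HLM006474 3 of the 78 were higher and 1 was lower, under the RUNX1 inhibitor none was higher and 2 were lower, and under SB431542 2 were higher and 2 lower. As shares of the 78 these are 3.85% higher and 1.28% lower under HLM006474, against 1.42% and 4.22% of all genes tested. Under the RUNX1 inhibitor 2.56% were lower, against 2.32% of all genes, and under SB431542 2.56% were higher and 2.56% lower, against 2.29% and 2.64%. None of the eIF2 kinases was listed, and neither was Atf4, Cebpb or Cebpg, which are all on the list of 6 transcription factors. Ppp1r15a, which encodes GADD34, the phosphatase subunit that reverses eIF2 phosphorylation, was listed as higher under SB431542, at 0.61 ± 0.11 in the authors' deposited table (adjusted p = 1.13e-06, DESeq2).

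Slc7a11, the cystine transporter subunit that ATF4 and NRF2 both induce, was listed as higher under HLM006474 and SB431542, at 1.48 ± 0.23 and 0.80 ± 0.23 in the authors' deposited tables. HLM006474 minus SB431542 was 0.68 for Slc7a11, with a 95% interval of 0.03 to 1.33, and did not pass over all genes in both tables (z test, adjusted p = 0.105). With an error that allows for the shared Vehicle samples the interval was 0.19 to 1.17 and the difference passed (z test, adjusted p = 0.0173), so the call for Slc7a11 depends on that error. Sqstm1, an autophagy receptor gene, and Vegfa, an angiogenic factor gene, were higher under HLM006474, at 0.62 ± 0.060 and 0.61 ± 0.10 in the authors' deposited table. In the amino acid synthesis list no gene was higher. Cbs, of transsulfuration, stood at -1.02 ± 0.17 under HLM006474 in the authors' deposited table. Pycr1, of proline synthesis, stood at -0.86 ± 0.28 under the RUNX1 inhibitor and at -0.84 ± 0.27 under SB431542 in the authors' deposited tables. Mthfd1l, a mitochondrial one-carbon enzyme like Mthfd2, was lower under the RUNX1 inhibitor, at -0.72 ± 0.11 in the authors' deposited table, and Slc6a9, a glycine transporter, was lower under SB431542, at -0.80 ± 0.24. None of 13 tRNA synthetase and tRNA export genes and none of 16 chaperones and other endoplasmic reticulum genes of the unfolded protein response was in any of the 3 tables. Changes of these genes under the limits cannot be seen here.

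**Figure D4:**
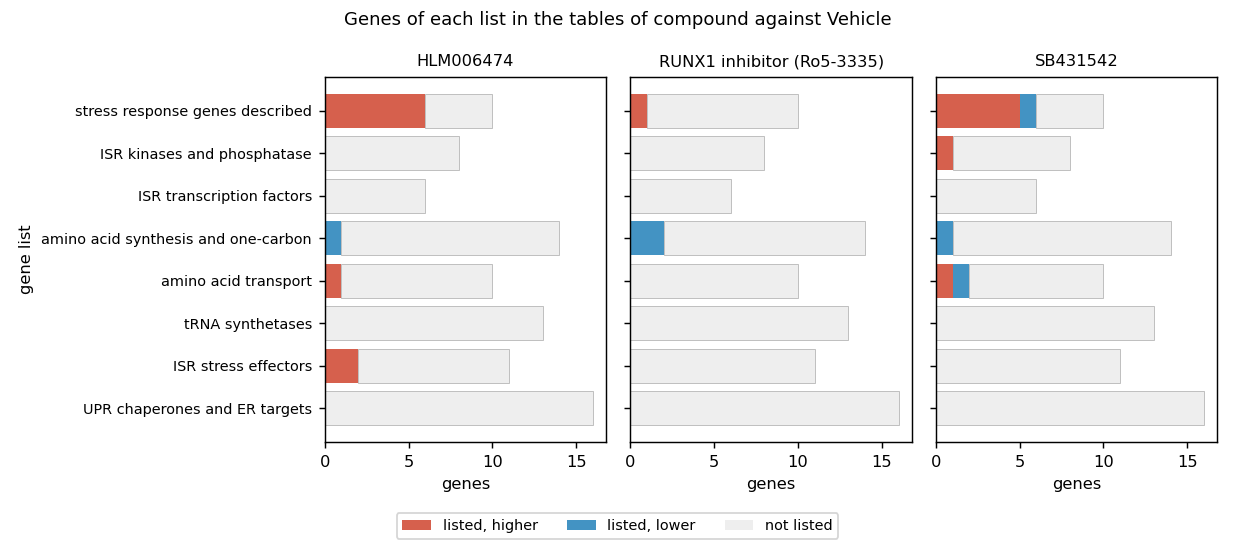
Number of genes listed as higher, listed as lower or not listed for the 10 stress response genes and for 7 further lists of the pathway, under HLM006474, the RUNX1 inhibitor and SB431542. The 10 genes have 6, 1 and 5 higher, and in the lists of transcription factors, tRNA synthetases and unfolded protein response genes no gene was listed.

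Genes that moved most like Atf3, Gdf15 and Trib3 were sought among those in exactly the same tables, by the Euclidean distance of log2 fold changes. The nearest of 103 genes to Atf3 was Clec7a, the beta-glucan receptor dectin-1 of myeloid cells, at 1.03 ± 0.15 under HLM006474 and 1.04 ± 0.15 under SB431542 in the authors' deposited tables. Next were 9930111J21Rik1 and Cd36, a scavenger receptor gene, at distances of 0.135 and 0.315 from Atf3. The nearest to Gdf15 was Fosl1, an AP-1 subunit gene, at a distance of 0.115, followed by Cd36 and B430306N03Rik. To Trib3 the nearest of 56 genes was Fn3k, a kinase that removes sugar from glycated protein, at a distance of 0.463, followed by Gm5831 and Cd300ld3. With 2 or 3 values per gene, that share the Vehicle samples, such likeness is a description.

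The cultures held astrocyte transcripts, with a mean count of 18965 for Fabp7 and 23892.5 for Kcnj10, and the other 10 of 12 astrocyte markers were in no table. Both were listed as lower in the authors' deposited tables, Fabp7 at -0.64 ± 0.055 under HLM006474 and -0.67 ± 0.055 under the RUNX1 inhibitor, and Kcnj10 at -0.77 ± 0.037 under SB431542. Myeloid transcripts were also present, with a mean count of 24249 for Lyz2. Beside the changes above, 4 of 11 microglia and macrophage markers were listed under HLM006474, 1 higher and 3 lower. Under SB431542 7 of the 11 were listed, 3 higher and 4 lower, and under the RUNX1 inhibitor none. Their changes in the authors' deposited tables ran from -1.08 for Tmem119 to 1.08 for Lyz2 under HLM006474 and from -4.00 for Tmem119 to 2.64 for Mrc1 under SB431542. Of 10 oligodendrocyte lineage markers 7 were lower under HLM006474 and 1 under SB431542. Of 8 endothelial and mural markers 1 was higher and 2 were lower under HLM006474, and 1 was lower under SB431542. Cspg4, lower under both, is on this list and on the oligodendrocyte list. Of 8 retinal neuron markers 1 was lower under HLM006474 and 1 under the RUNX1 inhibitor. Among all genes tested, 1.42% were higher and 4.22% lower under HLM006474, and 2.29% higher and 2.64% lower under SB431542. Under the RUNX1 inhibitor these shares were 0.605% and 2.32%. Levels of these markers per group could not be summed, since genes outside a table have no value. Their part in the changes of the stress response genes was not tested.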

How the data were processed

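RNA sequencing of 13 samples was read from 3 tables of the authors' comparisons. Per the submitters' processing notes, CASAVA 1.8, STAR 2.7 and DESeq2 1.30.1 were used with GRCm38, and read counter, gene models and strandedness: not given in the sources used here. Per the file headers, the authors' deposited columns are a mean normalised count (a signal level), a log2 fold change, its standard error, a Wald score, a p-value and an adjusted p-value. Only genes past the authors' limits are listed, and depth and values per sample are unknown from these tables, so there are no replicate values, SDs or leave-one-out fits. The sign was taken as compound over vehicle, from the table names.

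The number of genes tested was found from the ratio of p to adjusted p, as the smallest number that made most ranks whole within 0.02. It was 15169 for HLM006474, 13561 for the RUNX1 inhibitor and 15169 for SB431542. Differences between compounds were tested with a 2-sided z test on log2 fold changes, with the root of the summed squared errors and Benjamini-Hochberg adjustment over all genes in both tables (210, 161 or 93 genes). This error ignores the shared Vehicle samples and is too large where groups vary alike. For a gene outside a table the limit was the larger of the table's smallest fold change and the change that its largest listed p allows with the error from the other table. That limit assumes that the gene received a p. Group levels weight the fold changes by 3 samples per compound and 4 Vehicle samples. Over the 57 genes in all tables, differences in squared error predicted from such levels tracked the deposited ones (r = 0.999, across genes). The median ratio of deposited to predicted differences was 0.911. The scripts used Python 3.11.15, pandas 2.3.3 and scipy 1.17.1 and were tested on simulated data. Promoter windows are from RefSeq (GRCm38.p6) and loci from GENCODE M21 (GRCm38), the build of the notes.

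The members and lists were chosen with earlier results of these data known. All 10 members are named. Of the other pathway lists the genes in 2 or more tables, or with the 2 largest changes per list and table, are named, of the cell type marker lists the counts with genes chosen after their values were seen, and for members in 2 or more tables the 3 nearest genes. Alternatives were an adjusted p under 0.01, at least a 2-fold change, a mean count of at least 50 and an error that allows for the shared Vehicle samples.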

Additional observations from a re-analysis of the deposited data

How the results depend on the processing

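With at least a 2-fold change, 3 of the 10 genes stayed higher under HLM006474 and 3 under SB431542. At that limit 1 other pathway gene was higher under HLM006474, 0 were lower under the RUNX1 inhibitor, and 0 were higher and 0 lower under SB431542. With an adjusted p under 0.01, 1 other pathway gene was lower under the RUNX1 inhibitor and 1 under SB431542, and Chac1 lost its call under SB431542 (0.63, DESeq2 adjusted p = 0.0483). With the variance of a difference multiplied by 4/7 for the shared Vehicle samples, the gap of Gdf15 to the limit of the RUNX1 inhibitor table passed for HLM006474 (0.68) and SB431542 (0.69). Slc7a11 passed likewise for HLM006474, against SB431542 (0.68, z test, adjusted p = 0.0173) and against the limit of the RUNX1 inhibitor table (0.87, adjusted p = 0.00660, against 0.114 with the other error). As said above, the tests against a limit lean toward a difference. The other counts and differences for the 10 genes and the pathway lists kept their call under these settings and with a mean count of at least 50. No paired analysis was possible because the tables hold no values per sample, and for the same reason no replicate could be left out.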
